A study of Mus musculus with 12 samples.

Results

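GATA1 restoration was followed here as a change in DNase I accessibility between asynchronous cultures of the mouse erythroid lines G1E and G1E-ER4. Members were assigned by their labels: the 3 asynchronous G1E and the 3 asynchronous G1E-ER4 libraries, 6 of the 12 libraries of the series. The other 6 are mitotic libraries of both lines, sorted for phosphorylated histone H3 after nocodazole (200 ng/ml, 7 h), and they enter below only as libraries that had no part in choosing regions. G1E cells are described in the labels as derived from strain 129 embryonic stem cells in which GATA-1 was disrupted by targeting, and are listed as a mixture of Ter119-CD71- and Ter119-CD71+ cells. G1E-ER4 is the inducible GATA-1 rescue line made from G1E; its cells received 100 nM estradiol for 22 h and are listed as Ter119+CD71+. All cells were fixed with 0.1% formaldehyde, and 3 DNase I concentrations were chosen per condition. Estradiol was given to all G1E-ER4 libraries and is on the label of none from G1E, so GATA1 activity, estradiol, the stage of maturation and the subline cannot be told apart. Each line stands for its genotype alone, and separate cultures behind the replicates are not stated in the labels, so p-values measure only the spread between these libraries.

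GATA1 is a zinc finger transcription factor that binds GATA motifs in promoters and distal elements and is needed for erythroid maturation. Without it, G1E cells keep dividing as immature erythroid progenitors. In G1E-ER4 cells a GATA1 fused to the ligand-binding domain of the estrogen receptor becomes active when estradiol is added, and the cells go on to mature as red cell precursors do. DNase I cuts DNA more readily where nucleosomes are displaced, so clusters of cuts (peaks) mark active promoters, enhancers and insulators.

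The values are lists of peaks on the mouse build mm9, each with a position, a summit (the point of strongest signal) and a signal value whose normalization is not given in the sources used here. Each list stops at exactly 100000 peaks. A line therefore could not have more peaks than the other, and what can be compared is where the peaks lay, how wide they were and at which rank by signal they stood (rank 1 is the strongest). Autosomes 1 to 19 were used, without chromosome 2 beyond 156 Mb, where peak density differs between the lines as a block: that stretch held 1346, 1546 and 1865 peaks in the G1E lists and 4437, 5627 and 6319 in the G1E-ER4 lists. What was left held 97539, 97532 and 97095 peaks in G1E replicates 1 to 3 and 94922, 93738 and 93028 in G1E-ER4. The sources used here give neither read depth nor counts, so no counting error could be given. Gene annotation of mm9 was not used here, so regions are named by position and the cell type could not be checked against marker genes.

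Replicate 1 stood apart from its fellows in peak width in both lines. The median width was 763, 356 and 416 bp in G1E replicates 1 to 3 and 1181, 609 and 594 bp in G1E-ER4. The lines overlapped in this measure (511.7 ± 219.7 bp against 794.7 ± 334.7 bp, mean ± SD, n = 3 each; exact permutation test, two-sided, p = 0.3). Peaks covered 111.0, 44.1 and 55.9 Mb in G1E and 169.0, 81.3 and 76.5 Mb in G1E-ER4, again without separation (70.3 ± 35.7 against 109.0 ± 52.1 Mb, exact permutation p = 0.4). Without G1E-ER4 replicate 1 the differences between the line means fell from 283 to 89.8 bp in width and from 38.6 to 8.59 Mb in cover. The difference in cover was 59.0 Mb without G1E replicate 1 and 25.5 Mb without G1E replicate 2. With 3 lists against 3, this two-sided test cannot give a p below 0.1. Within the 12373 regions that held a single peak in each of the 6 lists, the median widths were 857, 479 and 532 bp in G1E and 805, 592 and 592 bp in G1E-ER4, and the lines overlapped there too (exact permutation p = 0.6). Because wide peaks meet other peaks more easily, counts below that rest on overlap are also given for equal windows of 300 bp around the summits where they move by more than 1.5 times.

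Most of the strong accessible sites were common to cells with and without active GATA1, and the lines parted at intermediate ranks. The Jaccard index, the base pairs shared by a pair of lists divided by those covered by either, was 0.258, 0.341 and 0.385 for the 3 pairs of G1E lists. It was 0.336, 0.336 and 0.452 for the 3 pairs of G1E-ER4 lists. Pairs that crossed the lines ran from 0.136 to 0.359 with a mean of 0.272, so single crossing pairs reached the level of same-line pairs. On average a same-line pair exceeded a crossing pair by 0.0791, and no other assignment of the lists to lines gave a larger gap than the labels did (exact permutation p = 0.1, the smallest possible). The excess was 0.0473 with equal summit windows, 0.136 without G1E replicate 1 and 0.138 without both replicate 1 lists.

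Regions that a pair of lists of one line shared were then looked up in the remaining lists. Of regions shared by 2 G1E lists, the left-out G1E list held 87.7%, 79.7% and 84.9% for replicates 1 to 3, and the G1E-ER4 lists held 69.2%, 69.8% and 71.4%. The loss from line to line was thus 14.0 percentage points (84.1% ± 4.06 against 70.1% ± 1.15, n = 3; exact permutation p = 0.1). In the other direction, regions shared by 2 G1E-ER4 lists were held by the left-out G1E-ER4 list at 87.9%, 80.9% and 83.2% and by the G1E lists at 75.8%, 63.9% and 68.6%, a loss of 14.6 points (84.0% ± 3.53 against 69.4% ± 5.98; exact permutation p = 0.05, the smallest this comparison allows). In both directions every own-line list held more than every list of the other line. With equal windows of 300 bp around summits the loss of G1E-ER4 regions was 7.23 points (exact permutation p = 0.1), and with the 20000 strongest peaks of each list the loss of G1E regions was 8.66 points. The other line still held 83.4% of the own-line level for G1E regions and 82.6% for G1E-ER4 regions.

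The size of that loss depended on rank. Among the 10000 strongest peaks of a G1E list, 99.5% ± 0.257 were met by a peak of another G1E list and 96.4% ± 1.10 by one of a G1E-ER4 list. Among the 10000 strongest of a G1E-ER4 list the shares were 99.9% ± 0.00779 and 99.3% ± 0.0612. For G1E peaks the gap was widest in the third class of 10000 ranks, at 19.9 points (89.7% against 69.8%), and had narrowed to 5.41 points in the sixth. For G1E-ER4 peaks it was 18.1 points in the third class, widest in the fourth at 21.9 points (74.5% against 52.6%) and still 19.3 points in the sixth. At the last ranks, 90001 to 100000, few peaks recurred even within a line: 23.6% ± 5.23 of G1E peaks were met in the same line and 26.1% ± 2.24 in the other, against 33.9% ± 11.2 and 20.8% ± 2.04 of G1E-ER4 peaks. Line-specific sites were thus rare at the top of the lists, and at the bottom the gap was -2.55 points for G1E peaks and 13.1 points for G1E-ER4 peaks.

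**Figure D1:**
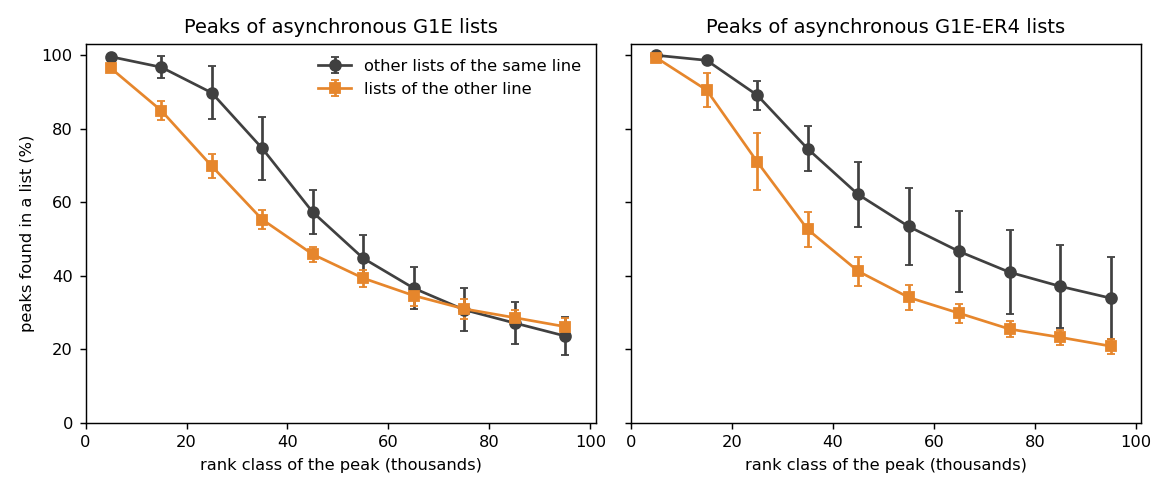
Share of peaks (percent, vertical axis) met by a peak of another list, by rank class of the peak (horizontal axis, classes of 10000 ranks), for G1E peaks and for G1E-ER4 peaks. Grey circles are lists of the same line and orange squares lists of the other line (mean ± SD over 3 lists); the curves lie close together above 96% in the first class and part most in the third class for G1E peaks and in the fourth class for G1E-ER4 peaks.

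Merging all 6 lists (peaks sharing at least 1 bp) gave 203759 regions, of which 66195 had a peak in at least 3 lists and 26497 (13.0%) in all 6. Regions with a peak in all 3 G1E-ER4 lists and in no G1E list, called gained below, numbered 4468, which is 2.19% of all regions. Regions with a peak in all 3 G1E lists and in no G1E-ER4 list, called lost below, numbered 5634 (2.77%). The words stand for presence in the lists only: an absent peak may lie below the rank limit. Just outside these definitions, 4450 regions had all 3 G1E-ER4 lists and 1 G1E list, and 3651 had all 3 G1E lists and 1 G1E-ER4 list. These counts depend on the lists used. Without G1E-ER4 replicate 1, 2 or 3 the gained regions numbered 8531, 8958 and 8905 and the lost ones 6825, 6885 and 7006. A gained region then needed 1 list fewer than a lost one, so these counts do not show which direction was larger. Without G1E replicate 1 the gained regions numbered 7339. Without G1E replicate 1, 2 or 3 the lost regions, which then needed 1 list fewer, numbered 9898, 9138 and 8956. Without both replicate 1 lists, the ones with wide peaks, 13543 regions were gained and 11790 lost. With presence in at least 2 of 3 lists of a line, 14815 were gained and 16061 lost. Which count was larger thus differed between these 2 settings, which treat the lines alike.

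Gained and lost regions were mostly of middle or low rank, the gained ones more so. The mean rank of a region over its 3 lists had a median of 53316 for gained and 42707 for lost regions, against 17057 for regions in all 6 lists. Only 92 gained regions (2.06%) and 486 lost regions (8.63%) had a mean rank of 20000 or better, as had 15003 (56.6%) of the regions common to all 6. The lost regions outnumbered the gained ones at the strong end also with equal summit windows (719 against 271) and without both replicate 1 lists (906 against 360).

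Gained regions were wide and lost regions narrow, along with the widths of the lists they came from. The median merged width was 2255 bp for gained and 741 bp for lost regions, against 2014 bp for those in all 6 lists. The summed width of a list's peaks inside a gained region had a median of 2162.5 bp in G1E-ER4 replicate 1 but 765 and 712 bp in replicates 2 and 3. Inside lost regions this median was 671, 386 and 423 bp in G1E replicates 1 to 3. A single peak per list made up 61.1% of gained and 88.9% of lost regions, and no test compared these widths, since the region definition rests on the same peaks.

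Many gained and lost regions lay away from the shared sites. Of gained regions 44.5%, and of lost regions 39.8%, lay within 10 kb of a region found in all 6 lists, against 56.2% of regions in at least 3 lists. Gained regions lay within 10 kb of another gained region in 31.7% of cases, and lost regions of another lost region in 28.3%. The authors' list pooled over the G1E-ER4 replicates held 4461 of the 4468 gained regions, and the list pooled over the G1E replicates held 220 of them (4.92%). For lost regions the pooled G1E list held 5626 of 5634 and the pooled G1E-ER4 list 388 (6.89%).

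Where a peak was common to both lines, its summit barely moved. Over the 12373 regions with a single peak in every list, the median distance between summits was 14.8 bp on average for pairs of lists of the same line (range 13 to 16 bp) and 15.8 bp for pairs across lines (14 to 19 bp). No other assignment of lists to lines gave a larger difference than these 0.944 bp (exact permutation p = 0.1).

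The 10 gained regions with the best mean rank were strong, reproducible peaks. The first, chr6:90659151-90661432 (2282 bp), stood at ranks 5238, 4317 and 4152 in the G1E-ER4 replicates and had no peak in any of the 3 G1E lists. Its summits in the 3 lists lay within 31 bp of each other. The next was chr19:6153743-6156163, at ranks 8825, 7526 and 4123. A 5800 bp region of the same chromosome, chr19:4857916-4863715, followed at ranks 9299, 6085 and 6221. The fourth was chr8:125829667-125831075, at ranks 8686, 8842 and 5212. Across all 10, ranks ran from 4123 to 12991 and summits agreed within 7 to 51 bp, while 3 of the 10, the one on chromosome 6 among them, had a peak in the authors' pooled G1E list.

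The 10 lost regions with the best mean rank stood higher still in their own line and varied more between replicates. The first, chr4:93147729-93148694 (966 bp), stood at ranks 3769, 1274 and 4617 in G1E and had no peak in any G1E-ER4 list. The fifth, chr2:6206697-6207394, stood at ranks 10309, 650 and 3258, so that replicate 1 placed it far behind the others. The most even of the 10 was chr16:91825881-91826936, at ranks 5669, 4605 and 5015 (mean 5096 ± 537, SD, n = 3). Ranks ran from 650 to 10309 and summits agreed within 13 to 102 bp. None of the 10 had a peak in the pooled G1E-ER4 list. Every one of these 20 regions kept its pattern under each of the 13 other settings tried, but most of these settings could not have changed it. Leaving out a list cannot add a peak to the other line. The worst rank among the 20 was 12991, so the shorter lists tried kept all these peaks. Adding or removing parts of chromosomes did not touch these regions. Only the summit windows of 300 bp redrew the peaks themselves. The own line's summits lie inside these regions, so there only a peak of the other line could have changed the pattern. The 20 regions were named because of their ranks, which therefore carry no test.

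**Figure D2:**
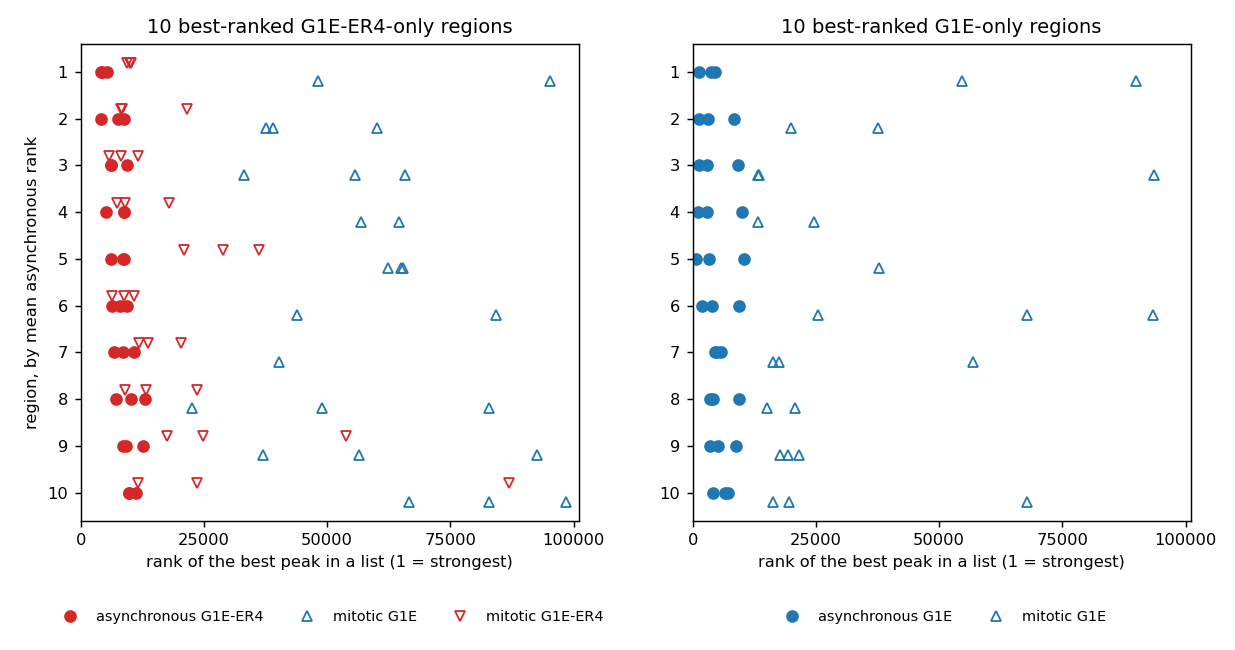
Rank by signal (linear axis, 1 is the strongest) of the 10 gained and 10 lost regions with the best mean rank. Filled circles are the 3 asynchronous lists of the line that holds the region and open triangles the mitotic lists of each line, with absent peaks not drawn; gained regions have triangles of both lines, those of G1E mostly at weaker ranks, and lost regions have none of mitotic G1E-ER4.

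The mitotic lists gave a reading of the same regions in libraries that had not chosen them. Lost regions kept their direction there. Mitotic G1E replicates 1 to 3 held 14.1%, 16.2% and 21.5% of the 5634 lost regions and mitotic G1E-ER4 replicates 6.89%, 4.58% and 6.46%. Every mitotic G1E list exceeded every mitotic G1E-ER4 list, by 11.3 percentage points on average (17.3% ± 3.77 against 5.98% ± 1.23, n = 3; exact permutation p = 0.1, the smallest possible). Both levels were below those of all regions (31.2% and 28.5%), and 61.1% of lost regions had no peak in any mitotic list. Mitotic G1E means were also the higher ones for regions in at least 3 asynchronous lists (62.8% against 56.1%) and in all 6 (84.4% against 76.9%), but there the lines overlapped. With each list, mitotic ones included, cut to its 20000 strongest peaks, 1438 regions were lost. Lost there means absent from the 20000 strongest G1E-ER4 peaks, so this is another set than the 5634. Their presence in the cut mitotic lists fell by 31.1 points from G1E to G1E-ER4 (32.9% against 1.78%).

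Gained regions were frequent in mitotic lists of both lines, and the lines overlapped. Mitotic G1E replicates held 58.1%, 71.4% and 62.8% of the 4468 gained regions and mitotic G1E-ER4 replicates 77.2%, 71.4% and 57.3%. The difference of 4.54 points (68.6% ± 10.2 against 64.1% ± 6.79) was smaller than the spread between replicates (exact permutation p = 0.7). It ran from 0.254 points without mitotic G1E-ER4 replicate 1 to 10.2 points without mitotic G1E-ER4 replicate 3. With each list, mitotic ones included, cut to its 20000 strongest peaks, 1081 regions were gained. The difference for these was 14.5 points (exact permutation p = 0.2). Of the 4468 gained regions, 1470 had a peak in all 6 mitotic lists, including those of G1E cells, whose asynchronous lists held none. A peak in all 6 mitotic lists was also found for 22872 of the 66195 regions in at least 3 asynchronous lists. Among all 203759 regions the number was 24775. For comparison, mitotic G1E lists held 62.8% ± 4.75 and mitotic G1E-ER4 lists 56.1% ± 3.64 of the regions found in at least 3 asynchronous lists. With equal windows around summits the gained regions numbered 3224 and were held at 35.5% ± 4.71 and 43.7% ± 5.69, overlapping again. With the distal part of chromosome 2 included, 5575 regions were gained and the mitotic difference was 12.8 points.

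In both directions the mitotic difference was largest among strong regions. The 92 gained regions with a mean rank up to 20000 were present in 43.8% ± 2.51 (mitotic G1E, range 42.4 to 46.7) and 74.3% ± 10.3 (mitotic G1E-ER4, 64.1 to 84.8), so the lines were apart (exact permutation p = 0.1). The 1570 gained regions with mean ranks above 60000 showed 57.5% ± 7.03 and 58.9% ± 14.6 (p = 1 by the same exact test). For the 486 strong lost regions the shares were 43.7% ± 24.4 in mitotic G1E, with a range of 16.7 to 64.2, and 2.54% ± 0.661 in mitotic G1E-ER4. For the 1170 lost regions of the weakest class they were 15.8% ± 7.19 and 12.2% ± 2.27 (exact permutation p = 0.7). Whether the differences between rank classes exceed the spread was not tested.

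**Figure D3:**
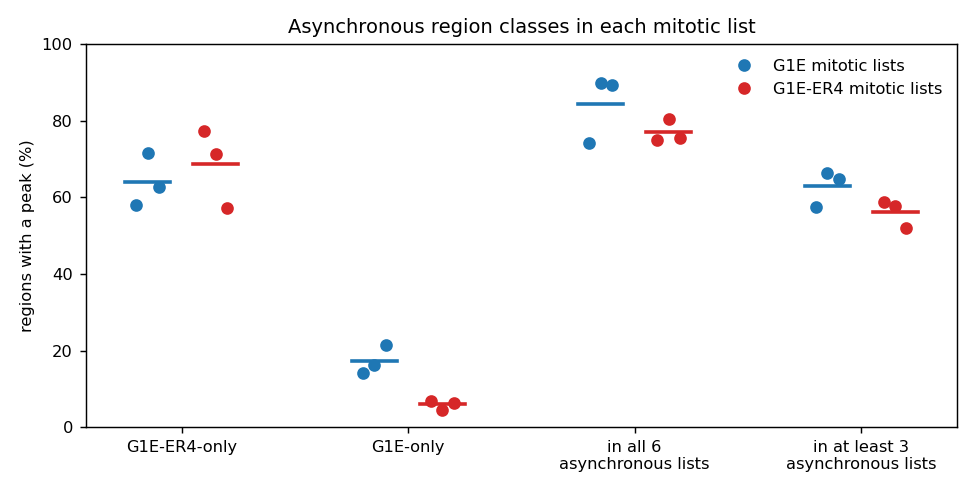
Share of regions (percent, vertical axis) with a peak in each mitotic list, for gained and lost regions and for the comparison sets. Points are the 3 lists of a line and bars their means; the lines are apart for lost regions and overlap for all gained regions.

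The named regions show both patterns. All 10 strong gained regions had a peak in each of the 3 mitotic G1E-ER4 lists, and 25 of the 30 possible peaks were also present in mitotic G1E. The region on chromosome 6, chr6:90659151-90661432, stood at ranks 10145, 9988 and 9490 in mitotic G1E-ER4 and at 48220 and 95220 in mitotic G1E replicates 2 and 3, with none in replicate 1. At 7 of the 10, every mitotic G1E-ER4 rank was ahead of every mitotic G1E rank present. The 10 strong lost regions had 24 of 30 possible peaks in mitotic G1E and none of 30 in mitotic G1E-ER4. At chr8:47672960-47673814, for example, the mitotic G1E replicates stood at ranks 21644, 17796 and 19404.

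Regions open in both lines also changed their place. For the 26497 regions present in all 6 lists, the best peak's rank was taken anew within each list, and limma compared the log2 ranks. A negative difference means a place nearer the top in G1E-ER4, and 1 unit is a factor of 2 in rank. At a Benjamini-Hochberg adjusted p under 0.05, 834 regions (3.15%) were placed higher in G1E-ER4 and 1285 (4.85%) lower. The median difference was -1.06 for the former, 1.49 for the latter and -0.03 for all tested regions, and 456 and 971 of them differed by at least 1. With replicate number as a block, 2166 were higher and 2521 lower, among them all 834 and all 1285.

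These calls rested on few lists. In limma's fit without G1E-ER4 replicate 2 the numbers higher and lower were 0 and 0 (at an unadjusted p under 0.05 they were 3392 and 2867), and without replicate 3 they were also 0 and 0 (3795 and 3038 unadjusted). Without G1E-ER4 replicate 1 there were 336 and 278, which turns the order of the counts, without G1E replicate 2 there were 246 and 927, without G1E replicate 3 there were 61 and 405, and without G1E replicate 1 there were 2163 and 3126. The regions placed higher were wide (median 3828 bp) and those placed lower of usual width (1904 bp, against 2014 bp for all tested). A single peak in every list was found in 24.6% of the former and 48.2% of the latter.

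Several of the regions with the greatest gain in place were already among the strong sites of G1E (ranks below are those in the full lists). At chr5:125341816-125344432 (2617 bp) the ranks were 2657, 10093 and 4081 in G1E and 165, 183 and 347 in G1E-ER4, a log2 difference of -4.55 ± 0.752 (SE; limma adjusted p = 0.0119). At chr10:79617561-79626266 they were 1664, 5172 and 1088 against 134, 70 and 109 (-4.59 ± 0.880, limma adjusted p = 0.0174). The region chr19:4109071-4116327 came from further down, with ranks 17503, 31632 and 29412 in G1E and 1797, 816 and 455 in G1E-ER4 (-4.48 ± 0.554, limma adjusted p = 0.00895). The widest shift, at chr11:119794297-119807469, was also the least even, since G1E replicate 1 already placed it at rank 415 and replicate 2 at 13859, against 32, 87 and 228 in G1E-ER4 (-5.21 ± 1.30). All of the 10 named regions that rose in place had a peak in each mitotic list, and all 10 kept the direction there.

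The regions that dropped furthest went from the very top of the G1E lists to places well below it in the G1E-ER4 lists. At chr12:83325965-83329439 (3475 bp) the ranks were 230, 60 and 57 in G1E and 21575, 11916 and 12512 in G1E-ER4, a log2 difference of 7.38 ± 0.795 (SE; limma adjusted p = 0.00892). At chr3:95392037-95393262 they were 399, 46 and 29 against 6915, 3412 and 1483 (5.56 ± 1.17). At chr1:52510545-52512163 they were 1877, 217 and 56 against 21815, 9290 and 11840 (5.53 ± 1.12). Of the 10 named regions placed lower, 7 lay on chromosome 12, although over all tested regions of that chromosome 4.22% were called lower, close to the 4.85% of all autosomes. Of the 8 that had a peak in every mitotic list, 7 kept the direction, and chr10:54934703-54935252 did not.

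**Figure D4:**
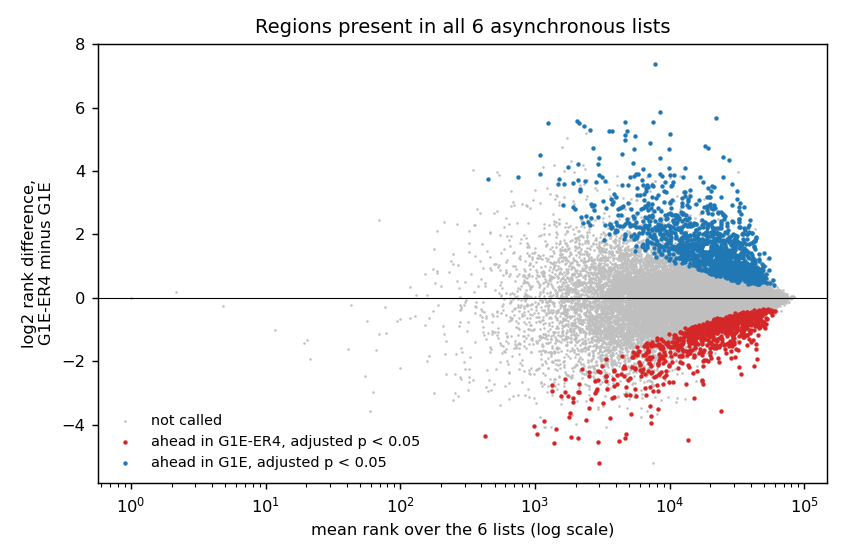
Difference in log2 rank between the lines (vertical axis, G1E-ER4 minus G1E, below 0 is nearer the top in G1E-ER4) against mean rank (horizontal axis, log scale) for the regions present in all 6 asynchronous lists. Red points are the 834 placed higher in G1E-ER4, blue points the 1285 placed lower and grey points the rest of those drawn.

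Mitotic ranks, which the fit had not used, went the same way. Of the 834 regions placed higher, 645 had a peak in all 6 mitotic lists, and 586 of these (90.9%) were nearer the top in mitotic G1E-ER4, against 50.6% of the 15853 tested regions found in all mitotic lists. Their median percentile place (0 is the top of the list) was 66.6, 62.1 and 65.6 in mitotic G1E and 48.1, 47.6 and 47.7 in mitotic G1E-ER4, so the groups were apart (exact permutation p = 0.1). Of the 1285 placed lower, only 388 had a peak in all 6 mitotic lists, and 95.1% of these were further down in mitotic G1E-ER4. Their median place was 50.3, 43.5 and 37.4 in mitotic G1E and 82.1, 75.7 and 72.4 in mitotic G1E-ER4, also apart (exact permutation p = 0.1). The median mitotic difference of these regions was -0.38 for the higher and 0.68 for the lower set, on the log2 rank scale.

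Peaks were also distributed differently over chromosomes. The lists of the lines were apart in the share of their peaks on 11 of 19 chromosomes (57.9%), with 9 higher and 2 lower in G1E-ER4. The shares of a list have a fixed total, so lower shares on some chromosomes raise those of others, and the 11 are not separate results. Means were also lower in G1E-ER4 on chromosomes 1 (14.1% against 11.2%) and 14 (4.93% against 3.54%), where the lines overlapped. Each of the 11 has an exact permutation p of 0.1 and an adjusted p of 0.173, so none passes a threshold of 0.05. Chromosome 11 carried 6.06% ± 0.518 of the peaks of G1E lists and 8.15% ± 0.433 of those of G1E-ER4 lists (n = 3), and chromosome 7 carried 5.07% ± 0.189 and 6.96% ± 0.357. Chromosome 12 had 13.2% ± 2.05 of the G1E peaks and 8.47% ± 2.71 of the G1E-ER4 peaks, and chromosome 3 was the other lower one. On none of the 11 were the mitotic lists of the lines apart in the same direction, and for chromosome 12 the mitotic means were 9.62% and 9.87%.

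**Figure D5:**
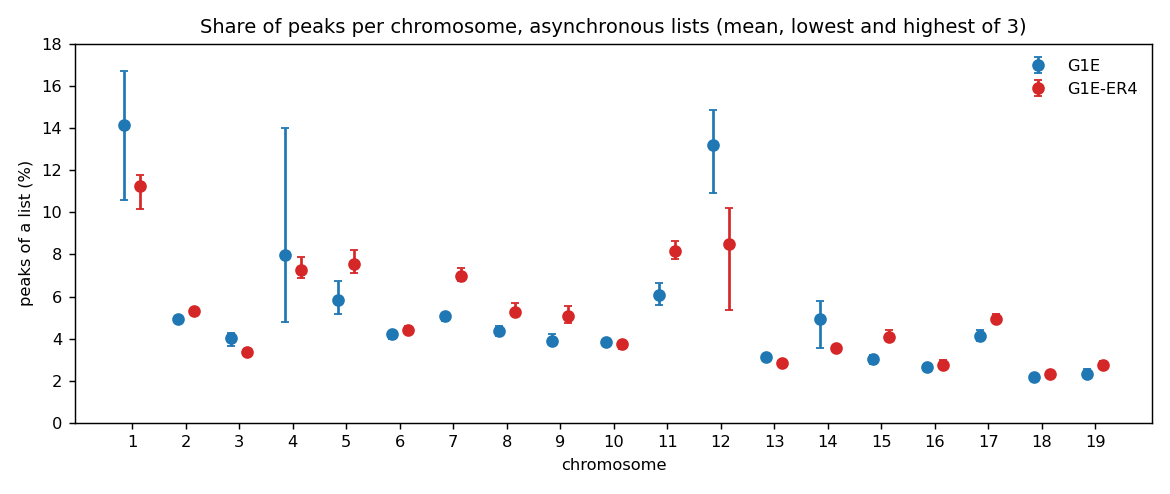
Share of a list's peaks (percent, vertical axis) on each autosome (horizontal axis) in asynchronous G1E and G1E-ER4, as the mean, lowest and highest of 3 lists. Chromosomes 5, 7 and 11 are higher and chromosome 12 lower in G1E-ER4.

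Gained and lost regions come from the same 6 lists as the shares of peaks per chromosome, so they are not a separate reading of them. More gained than lost regions lay on 7 of the 19 chromosomes. Chromosomes 2 and 19, higher in G1E-ER4 by share of peaks, held more lost than gained regions (359 against 295 and 154 against 147). Chromosome 11 held 526 gained regions (11.8% of them, against 6.40% of all regions). Chromosome 5 held 497 (11.1%, against 6.90%) and chromosome 7 held 451 (10.1%, against 5.64%). Chromosome 12 held 89 gained (1.99%) and 718 lost regions (12.7%), against 9.68% of all regions. Chromosome 1 held 253 gained (5.66%) and 689 lost regions (12.2%), against 13.5% of all regions. The densest gained stretch among 499 windows of 5 Mb was chr11:115000001-120000000, with 99 gained and 8 lost among its 1338 regions. It held 701, 534 and 612 peaks in G1E against 1107, 1090 and 1191 in G1E-ER4. The window chr5:110000001-115000000 followed with 76 gained and 3 lost among 1046 regions. The 5 windows with the largest excess of lost regions all lay on chromosome 12, the first being chr12:100000001-105000000 with 107 lost and 2 gained among 1588 regions. In chr12:115000001-120000000, with 72 lost and none gained among 1185 regions, the lists held 718, 722 and 674 peaks in G1E and 70, 311 and 299 in G1E-ER4. A typical window held 4 gained and 9 lost regions. These counts were not scaled by the number of regions in a window. Over all regions, 2.19% were gained and 2.77% lost. Whether a difference in copy number, in digestion or in accessibility moves peak density over such stretches was not tested.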

How the data were processed

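DNase-seq peak lists of 6 asynchronous libraries were compared, with 6 mitotic libraries and the authors' pooled lists as further readings. Per the submitters' processing notes, Bowtie and the mouse build mm9 were used; which peak caller and filters followed is not given in the sources used here. For each peak the deposited lists give a position, a signal set by the authors' peak caller with an unstated normalization, and the offset of the summit from the peak start. The signal is the authors' own value and was served here for ranks inside each list alone. Each list was limited to 100000 peaks in descending signal, which makes the number of peaks equal and leaves weaker sites out. No pair of lists was identical.

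Members and lists were chosen with earlier results of these data known. Regions were merged at 1 bp of overlap. Regions were named by rule: for presence, the 10 with the best mean rank in each direction; for rank, the 10 largest differences in each direction among those past an adjusted p of 0.05 whose groups do not overlap. Single values were compared with exact permutation tests, two-sided, and ranks with limma 3.58.1 (trend, Benjamini-Hochberg adjustment) in R 4.3.3. Scripts ran in Python 3.11.15 and were tested on simulated data. There, limma called 2.94% of the 68 regions given a shift of 1 log2 rank unit, 16.7% of 66 at 2 units and 51.5% of 66 at 3. Smaller shifts were thus mostly missed in the simulation. Few of its 26497 regions were shifted, and its noise was drawn independently for each list. These rates therefore need not hold for the data. Same-numbered lists of the lines deviated together (correlations of log2 rank deviations 0.397, 0.171 and 0.208), and the labels give only the numbers, so the pairing comes from the data; the pair G1E 2 and G1E-ER4 3 reached 0.290. Alternatives were summit windows of 300 bp, other overlap and presence rules, fewer peaks, the distal part of chromosome 2 kept, a replicate block and leaving out each list.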

Additional observations from a re-analysis of the deposited data

Results flagged for a closer look

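Peak names in the deposited lists carry numbers that follow position along each chromosome, and the highest numbers exceed the 100000 peaks kept, so they give a lower limit to the features numbered before the lists were limited. Summed over chromosomes, they reached at least 447012, 273095 and 330132 in asynchronous G1E replicates 1 to 3 and 539539, 505270 and 457003 in G1E-ER4. The means of these lower limits were 350080 and 500604, with the lines apart (exact permutation p = 0.1, n = 3 each). In mitotic lists the means were 484159 and 484194 (p = 1 by the same exact test). This was singled out as a signal in a column that no comparison of the report uses; its part in the results was not tested.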

How the results depend on the processing

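Leaving out 1 list at a time gave 5094 to 8958 gained and 6825 to 9898 lost regions, and 0 to 2163 and 0 to 3126 regions placed higher and lower in G1E-ER4. Presence in at least 2 of 3 lists gave 14815 gained and 16061 lost regions. With the 50000 strongest peaks of each list 2559 regions were gained, and 326 and 618 were placed higher and lower. With the 20000 strongest, 1081 were gained, 1438 were lost, and limma placed 0 higher and 0 lower (1223 and 1226 at an unadjusted p under 0.05; smallest adjusted p 0.0526). With the replicate block 2166 and 2521 were called, and the block changed no other call. Without both replicate 1 lists, an alternative chosen after seeing the data, 13543 were gained, 11790 lost, 2547 placed higher and 2919 lower. For the 20 regions named for their rank difference, 153 values under other settings stayed past the threshold, 91 did not and none reversed. Gained outnumbered lost regions without both replicate 1 lists. They did so without any single G1E-ER4 list too, where a gained region needed 1 list fewer than a lost one. More shared regions were placed higher than lower without G1E-ER4 replicate 1, and no other main value changed sign. The recovery gap has no value when a list of its own line is left out. Equal lists of 100000 peaks limit what can be seen of weak sites, and depth is unknown.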

Other observations

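The difference between the lines was compared between asynchronous and mitotic lists in 22 tests, covering the share of peaks on each chromosome and properties of the lists. Stage labels were exchanged within each line (exact permutation over all 400 arrangements). The smallest adjusted p was 0.179, so none passed 0.05.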
